A study of Rattus norvegicus with 4 samples.

Results

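The comparison described here set the mammary gland of homozygous Hirosaki hairless rats (HHR) on day 1 of lactation against that of Sprague-Dawley rats (SDR) on day 1 of involution, the regression that begins when milk is no longer removed. It used 2 of the 4 arrays of the study, chosen by their labels. The other arrays held SDR and heterozygous HHR glands, both on day 1 of lactation, and are given beside the pair where they show where a value lies. Each group was 1 array of mammary gland RNA, and the number of animals behind an array, their age, the length of the lactation that came before involution and how milk removal was stopped are not stated in the labels. HHR is a hairless mutant strain, and the labels name neither its mutation nor a line, transgene or treatment. Strain and stage differ at once in this pair and cannot be told apart. With 1 array a side no difference has a replicate error, a standard error or a test, so differences are described by their size alone.

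Lactation is the state in which the alveolar epithelium takes up glucose, amino acids and fatty acids and secretes casein, lactose and fat droplets under the control of prolactin, whose receptor acts through the transcription factor Stat5. When suckling stops, milk fills the alveoli, the cytokine LIF acts through the transcription factor Stat3, and secretory cells are lost while acute phase proteins, lysosomal proteases and matrix proteases appear. The first day of involution precedes the collapse of the alveoli and can still be reversed by suckling.

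Each value is a MAS5 signal, the intensity of a probe set on a linear scale as the authors deposited it. Signals below 91.5, the 40th percentile over the 4 arrays of all probe sets other than controls, were raised to that floor. Where 1 of the signals is at the floor the fold is only a minimum, written as at least. The array named 14217 genes, of which 10998 rose above the floor in 1 or both arrays of the pair and are called measured. A gene is called higher or lower where its signals differed at least 2-fold. In groups of 4 signals the order is lactation in SDR, in heterozygous HHR and in homozygous HHR, then SDR involution. Signals are compared between arrays for 1 gene and never between genes.

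In the homozygous HHR gland 844 of 10998 measured genes were higher (7.67%) and 853 were lower (7.76%) than in SDR involution, and 15.4% differed in either direction. The median log2 difference over all measured genes was -0.06, with quartiles of -0.47 and 0.38. At least 4-fold differences were found for 186 higher and 105 lower genes. Of the called genes, 119 of the higher and 116 of the lower had 1 signal at the floor. The counts rest on the scaling of the arrays. With medians of all probe sets set equal they were 1099 higher and 620 lower, so that 63.9% of the called genes were higher where the deposited scaling gave 49.7%. With 18 spiked hybridisation controls set equal they were 491 and 1987, 19.8% higher, because these controls were brighter in homozygous HHR than in involution by a mean log2 of 0.38. The 24 spiked poly-A controls differed by -0.08, and setting them equal gave 980 higher and 711 lower. The hybridisation setting moved the median of all genes to -0.41 and turned 21 of 33 positive list medians negative. A list's median is therefore read here against the -0.06 of all measured genes, or against -0.41 with hybridisation controls set equal. Its counts are read against the 7.67% higher and 7.76% lower of all measured genes.

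The arrays were alike in their overall signal, with a mean of 500.2 once 2% of probe sets were trimmed from each end, and between 10368 and 10472 genes above the floor. The ratio of 3′ to 5′ signal, which grows as RNA degrades, was 5.91 in homozygous HHR and 4.80 in involution for actin, and 2.30 and 1.60 for Gapdh. The part of RNA quality in the differences was not tested. A further probe set above the floor existed for 426 of the called genes, in 358 all of them went the same way, and in 146 all of them were also past 2-fold. These probe sets read the same hybridisations and are no replicates. The share of genes called lay between 12.8% and 18.1% in each of 5 equal groups of genes ranked by mean signal.

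**Figure D1:**
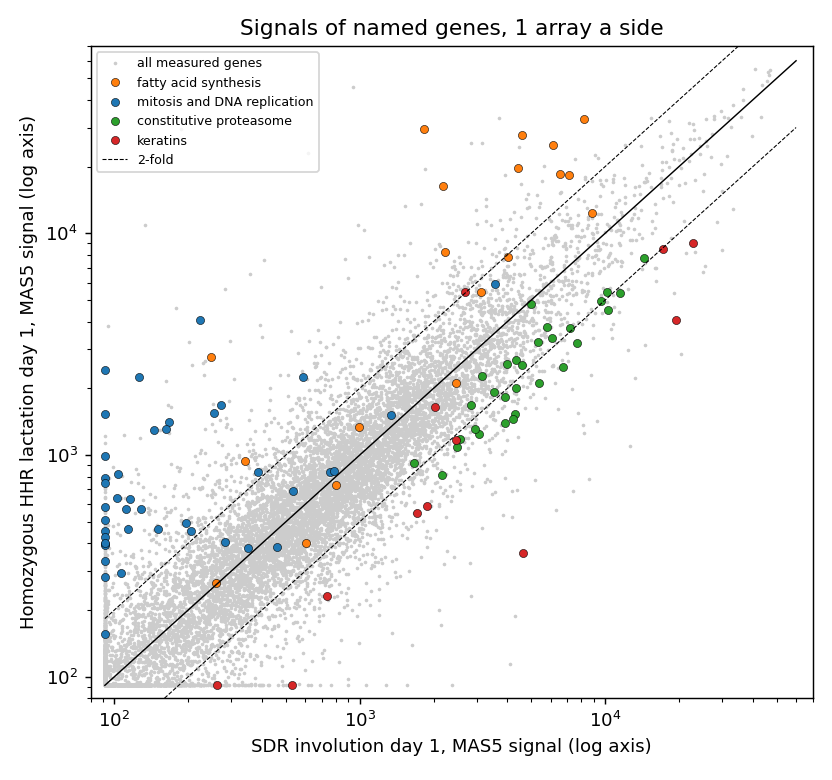
Each point is 1 measured gene, with its MAS5 signal in SDR involution on the horizontal axis and in homozygous HHR lactation on the vertical axis, both logarithmic. The solid line marks equal signals and the dashed lines 2-fold differences. Genes of fatty acid synthesis and of mitosis lie mostly above the upper dashed line, proteasome subunits lie around the lower dashed line, and 10 of the 12 measured keratins lie below it.

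The milk-associated gene Prr27 had a signal of 29696 in homozygous HHR and 187 in involution, a 158-fold difference. Fam111a, a restriction factor that acts at replication forks, was 82.1-fold higher, and the secretoglobin pseudogene Scgb1d2-ps1 was 40.4-fold higher at 3817 against 94. Lactation arrays differed widely for Scgb1d2-ps1, at 19375 in SDR and 722 in heterozygous HHR. Fabp3, which binds fatty acids in the cytosol of secretory cells, gave 45741 against 941 (48.6-fold), and Slc34a2, the apical sodium phosphate cotransporter, gave 22956 against 618 (37.2-fold). Both other lactation arrays were also at 52813 or more for Fabp3, so involution was the low array. Aass, an enzyme of lysine breakdown, was 25.7-fold higher, the carbonic anhydrase Car2 19.8-fold and the lipase inhibitor G0s2 18.5-fold. In the other direction Cdhr1, a photoreceptor cadherin, had 114 in homozygous HHR and 4095 in involution (35.8-fold lower), and was at the floor in both other lactation arrays. Card14, a scaffold protein of keratinocyte NF-kB signalling, gave 91.5 (floor) in SDR lactation, 164 in heterozygous HHR lactation, 1101 in homozygous HHR lactation and 12657 in involution. The antimicrobial peptide gene Reg3b and the retinoic acid enzyme Aldh1a3 were at the floor in all 3 lactation arrays and at 1558 and 1062 in involution, at least 17.02 and 11.6-fold apart.

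Milk protein genes barely separated the pair. The list's median log2 difference was 0.20, with 1 of 8 measured members higher and 0 lower. The median became -0.19 with hybridisation controls set equal, where that of all measured genes was -0.41. The beta casein gene Csn2 gave 54651, 55859, 46514 and 43743, the alpha S1 casein gene Csn1s1 gave 59405, 60311, 51747 and 46394, and Lalba, the regulatory subunit of lactose synthase, gave 48610, 50638, 44820 and 36580. In each of these the involution array was the lowest and homozygous HHR the next. These signals lie near the top of the arrays, whose highest value was 58306 in homozygous HHR and 47462 in involution, so small folds there may be bounded. The lactoperoxidase gene Lpo, an antibacterial milk enzyme, was the member past 2-fold, at 11810 against 4545 (2.60-fold).

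The caseins are classical targets of Stat5, which binds the palindrome TTCNNNGAA. Promoters from RefSeq (GRCr8), 250 bases before to 50 after a gene's start, were found for 9 members of the milk protein list, and 3 of the 9 (33.3%) held TTCNNNGAA, a motif that reads the same on both strands. Of all 33469 promoters given, 8.87% held it, and 2 of 19 (10.5%) in the list of Stat3 and early involution genes did. The 250 bases before the start of both caseins are shown because their motif is the site class named above, here in capitals, while their signals differed by less than 1.2-fold between the pair. Csn1s1 lies on the minus strand at chr14:20638850-20639099 and its match begins 100 bases before the start. Csn2 lies on the plus strand at chr14:20601574-20601823 and its match begins 97 bases before the start.
Csn1s1: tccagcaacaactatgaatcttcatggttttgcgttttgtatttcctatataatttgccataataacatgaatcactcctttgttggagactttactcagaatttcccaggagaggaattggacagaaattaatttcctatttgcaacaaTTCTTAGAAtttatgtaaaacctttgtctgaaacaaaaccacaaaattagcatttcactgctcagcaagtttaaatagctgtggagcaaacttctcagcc
Csn2: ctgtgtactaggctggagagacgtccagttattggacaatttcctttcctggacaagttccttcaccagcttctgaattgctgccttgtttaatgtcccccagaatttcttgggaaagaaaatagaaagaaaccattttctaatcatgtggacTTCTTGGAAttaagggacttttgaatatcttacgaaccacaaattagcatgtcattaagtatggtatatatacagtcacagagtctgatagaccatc

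Enzymes that make fatty acids were higher in homozygous HHR as a group. The list's median log2 difference was 1.48, and 12 of 20 measured members were higher and 0 lower. Fatty acid synthase, Fasn, gave 33683 in SDR lactation, 31008 in heterozygous HHR lactation, 27710 in homozygous HHR lactation and 4604 in involution. Acetyl-CoA carboxylase, Acaca, which supplies its malonyl-CoA, was at 16281 against 2191 (7.43-fold), and Acss2, which activates acetate, at 19729 against 4396 (4.49-fold). Among the probe sets kept, the desaturases Fads1 and Fads2 had the widest gaps, at 29471 against 1833 (16.1-fold) and 2756 against 249 (11.1-fold). A further, dimmer probe set of Fasn had a wider gap, at 21908 against 1115 (19.6-fold). In this list the homozygous HHR array stood with the other lactation arrays: SDR lactation had 16 members higher than involution (8.94% of all measured genes were) and heterozygous HHR 13 (9.57% of all), with medians of 1.76 and 1.45. Thrsp, a regulator of lipogenesis, did not follow them, with 29683, 10763, 12333 and 8819. Its signal was high in SDR lactation only and was within 1.4-fold between homozygous HHR and involution. With hybridisation controls set equal 11 members remained higher and the median was 1.10.

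Fatty acid uptake and triglyceride assembly had 9 of 25 members higher, 1 lower and a median of 0.34. The list's median was -0.03 with hybridisation controls set equal, beside -0.41 for all measured genes. Lpl, the lipase that releases fatty acids from blood lipoproteins, gave 33165 against 3696 (8.97-fold), Acsl1, which activates long-chain fatty acids, gave 24569 against 4445 (5.53-fold) and Agpat1, an acyltransferase of phosphatidate synthesis, gave 1706 against 253 (6.74-fold). Cd36, a fatty acid translocase, was graded over all arrays, at 34685 in SDR lactation, 15568 in heterozygous HHR lactation, 7958 in homozygous HHR lactation and 1511 in involution. Fabp5, another binding protein, had its highest signal in involution, at 27564 against 39723, short of 2-fold. Of 7 genes of the milk fat globule coat 3 were higher and 1 lower. Cidea, which controls lipid droplet size, was at 25579 against 3158 (8.10-fold) and the mucin Muc1 at 7185 against 1261 (5.70-fold), whereas the droplet enzyme Xdh was within 1.3-fold at 33702 against 27905. Cholesterol synthesis had 6 of 20 members higher and 0 lower (median 0.78), among them Sc5d at 1446 against 353 (4.10-fold), and the sterol sensor Insig1 was at 6276 against 893 (7.03-fold).

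Glucose entry and lactose synthesis had 4 of 12 members higher and 0 lower, at a median of 0.38. The list's median was just below 0 with hybridisation controls set equal, beside -0.41 for all measured genes. The glucose transporter Slc2a1 gave 6331, 3554, 3292 and 1240 and was thus lower in homozygous HHR than in SDR lactation while 2.65-fold above involution. B4galt1, the catalytic partner of Lalba in lactose synthase, was at 7057 against 1376 (5.13-fold), although a further probe set of it, much dimmer, went the other way. In glycolysis 3 of 23 members were higher and 2 lower, where 7.67% and 7.76% of all measured genes were. Its aldolase Aldoc was 10.6-fold higher while the lactate dehydrogenase Ldha was 2.30-fold lower. The pyruvate dehydrogenase kinase Pdk4, which shuts glucose carbon out of lipid synthesis, gave 457 in SDR lactation, 529 in heterozygous HHR lactation, 3914 in homozygous HHR lactation and 10725 in involution. It was lower than in involution and above both other lactation arrays. Of 27 respiratory chain subunits 4 were higher and 0 lower (median 0.51). With hybridisation controls set equal no subunit was past 2-fold and their median was 0.13. That median lay 0.57 above the one of all measured genes as deposited, and 0.55 above it under this scaling.

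Transporters of ions, water and vitamins had 8 of 30 members higher and 1 lower, at a median of 0.29. The list's median was -0.08 with hybridisation controls set equal, beside -0.41 for all measured genes. The Golgi calcium pump Atp2c2 gave 3283 against 624 (5.26-fold), the water and glycerol channel Aqp3 gave 3232 against 202 (16.01-fold) and the transferrin receptor Tfrc gave 14239 against 3279 (4.34-fold). The apical calcium pump Atp2b2 was at 1794 in SDR lactation and 2707 in heterozygous HHR, at 386 in homozygous HHR and at the floor in involution. Homozygous HHR was the low lactation array for it, yet at least 4.22-fold above involution. The folate receptor Folr1, at 12549, 3841, 4323 and 4738, and Slc12a2, the sodium potassium chloride cotransporter, at 1885, 3390, 4523 and 4258, differed by less than 1.1-fold between the pair. Of 18 amino acid transporters 3 were higher and 1 lower, with Slc38a3, a glutamine carrier, at 988 against 213 (4.63-fold). The stress factor Atf4 gave 10681, 8364, 5262 and 5441, so homozygous HHR and involution shared the lower level, and its target list was mixed, with 3 of 23 members in each direction.

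Genes that feed proteins into the endoplasmic reticulum were among those higher in homozygous HHR. Of 31 members 5 were higher and 0 lower, at a median of 0.40. With hybridisation controls set equal 4 remained higher and the median was 0.03, beside -0.41 for all measured genes. The channel subunits Sec61a1 and Sec61b were at 7332 against 2562 (2.86-fold) and 14966 against 4841 (3.09-fold) and the translocon protein Ssr1 at 4957 against 1188 (4.17-fold). The chaperone Hspa5, at 16255 against 16967, differed by less than 1.1-fold. Of 40 cytosolic ribosomal protein genes 0 were higher and 1 was lower, at a median of 0.14.

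Genes of prolactin signalling were higher in homozygous HHR where they differed. Of 14 measured members 5 were higher and 0 lower, at a median of 0.81. The prolactin receptor gene Prlr gave 12407 in SDR lactation, 11404 in heterozygous HHR lactation, 12461 in homozygous HHR lactation and 4271 in involution, and Elf5, the alveolar transcription factor that prolactin induces, gave 10893 against 3420 (3.18-fold). Gata3, a luminal transcription factor, was 2.90-fold higher and the glucocorticoid receptor Nr3c1 3.96-fold higher. The Stat5 target Cish, a feedback inhibitor of cytokine receptors, gave 421, 566, 1333 and 476 and was high in homozygous HHR only. Stat5a itself was at 2742 against 1420, short of 2-fold. Medians for the same list were 0.91 in SDR lactation and 0.50 in heterozygous HHR against the same involution array.

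**Figure D2:**
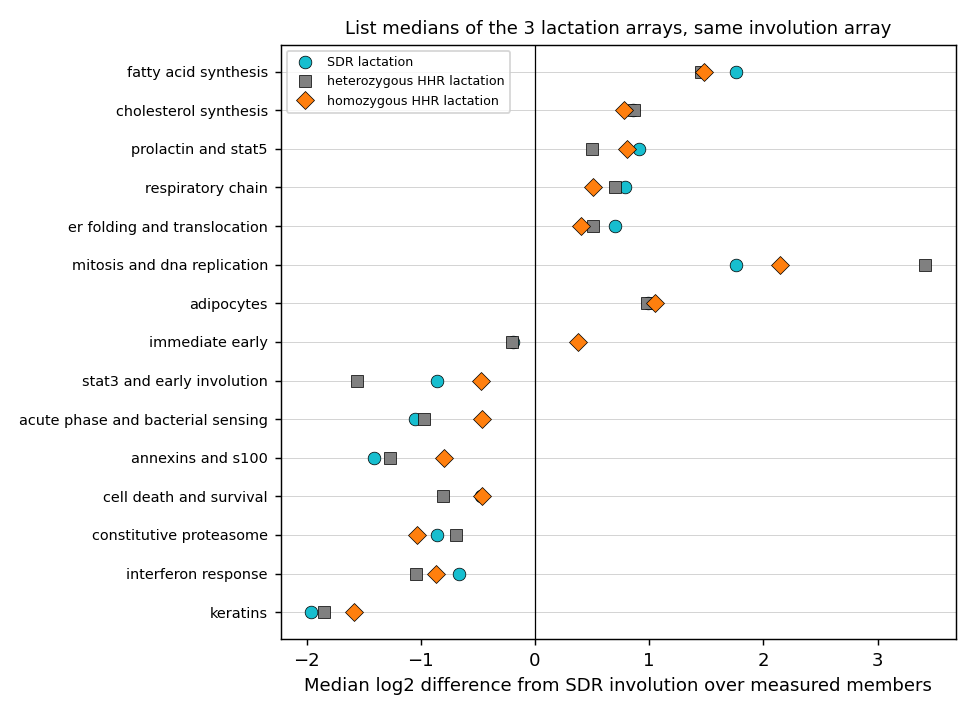
Each point is the median log2 difference between 1 lactation array and the SDR involution array over the measured members of a gene list. All 3 lactation arrays share the involution array, so their points are not independent. Fatty acid synthesis lies between 1.45 and 1.76 in the 3 arrays, mitosis is highest in heterozygous HHR at 3.41, and immediate early genes are above 0 in homozygous HHR at 0.37 and below 0 in both others.

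Genes of mitosis and DNA replication formed the list with the most higher members. Of 41 measured members 32 were higher and 0 lower in homozygous HHR, at a median of 2.14. Top2a, which untangles replicated chromosomes, was at 2412 and at the floor in involution, at least 26.4-fold apart. The proliferation marker Mki67 gave 2496 in SDR lactation, 10701 in heterozygous HHR lactation, 4059 in homozygous HHR lactation and 224 in involution, the spindle protein Nusap1 gave 2256 against 126 (17.9-fold) and cyclin B2, Ccnb2, gave 1297 against 145 (8.96-fold). The involution array was the lowest for each of these and heterozygous HHR the highest, with homozygous HHR nearer SDR lactation. Some replication genes were short of 2-fold. Pcna, the polymerase clamp, was at 5908 against 3573 (1.65-fold), and Mcm6 and Mcm7, subunits of the replicative helicase, were within 1.2-fold. Against the same involution array 30 members were higher in SDR lactation (median 1.76) and 40 in heterozygous HHR (median 3.41). Over all measured genes 8.94% and 9.57% were. With hybridisation controls set equal 29 remained higher in homozygous HHR.

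Mitotic genes are held silent in resting cells by a repressor complex that binds the element TTTGAA near their starts. Of 36 promoters found for 33 genes of this list, 15 (41.7%) held TTTGAA or, on the other strand, TTCAAA. Among all 33469 promoters 18.3% did. Of the 15 genes with it 14 were higher in homozygous HHR, as were 32 of all 41 measured members of the list. The exception was the helicase gene Mcm2, at a log2 difference of -0.27, which held the element at 2 positions. Ect2, Ccnb2, Mki67 and Cdk1, the kinase that starts mitosis, also held it at 2 positions and were higher. Sequences of Mki67 and Cdk1 are shown as examples of these, with the element in capitals. Cdk1, chosen after its values were seen, had 1687 against 272 (6.19-fold). Mki67 lies on the minus strand at chr1:199952594-199952843, with matches that begin 117 and 99 bases before the start. Cdk1 lies on the plus strand at chr20:19265043-19265292, with matches that begin 72 and 16 bases before it.
Mki67: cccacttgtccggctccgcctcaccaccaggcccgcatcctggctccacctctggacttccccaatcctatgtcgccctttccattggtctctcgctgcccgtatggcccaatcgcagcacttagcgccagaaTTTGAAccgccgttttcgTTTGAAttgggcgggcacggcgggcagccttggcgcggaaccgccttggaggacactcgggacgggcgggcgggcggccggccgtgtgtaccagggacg
Cdk1: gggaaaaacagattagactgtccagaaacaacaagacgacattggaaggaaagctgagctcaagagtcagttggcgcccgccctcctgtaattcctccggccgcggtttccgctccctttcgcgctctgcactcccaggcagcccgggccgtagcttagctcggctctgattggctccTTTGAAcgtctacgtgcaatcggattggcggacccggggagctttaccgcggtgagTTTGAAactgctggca

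Several growth and early response genes were higher in homozygous HHR than in involution. Of 31 immediate early genes, the first to be transcribed after a stimulus, 8 were higher and 1 lower, at a median of 0.37. The growth regulator Myc gave 371 in SDR lactation, 842 in heterozygous HHR lactation, 2536 in homozygous HHR lactation and 207 in involution, 12.2-fold above involution. Jun, a subunit of the AP-1 transcription factor, gave 853, 593, 4106 and 1564 (2.62-fold), whereas its partner Fos gave 402, 789, 2047 and 2188 and was level between the pair. Gadd45b, a stress-inducible gene, went the other way, at the floor in homozygous HHR and at 687 in involution. With hybridisation controls set equal the list had 2 members in each direction and a median of 0.05. Of all 11336 genes measured under that scaling 491 were higher and 1987 lower, at a median of -0.41. Against the same involution array SDR lactation had 2 members higher and 7 lower, where 8.94% and 10.3% of all measured genes were. The list's median was -0.19 in SDR lactation and -0.20 in heterozygous HHR. Of the connective tissue growth genes in the Wnt and CCN list, Ccn2, a Yap target, gave 428, 733, 5983 and 2262 and was 2.64-fold higher, and Ccn3 was 18.5-fold higher and low in involution only.

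Some early involution genes were level between homozygous HHR and involution, and others were highest in involution. Of 22 members of the Stat3 and early involution list 0 were higher and 7 lower, at a median of -0.48. Tgfb3, a growth factor that milk stasis induces, gave 4047, 2099, 8809 and 7209, and Igfbp5, which sequesters insulin-like growth factors, gave 2855, 1657, 6181 and 6887, so both were within 1.3-fold in the pair and lower in the other lactation arrays. Dimmer probe sets of Igfbp5 were further apart, and 3 of 4 were between 1.70-fold and 2.17-fold lower in homozygous HHR. Cebpd, a Stat3-induced transcription factor, gave 559, 816, 4992 and 2854 and was highest in homozygous HHR. Stat3 itself gave 1055 in SDR lactation, 1621 in heterozygous HHR lactation, 3359 in homozygous HHR lactation and 10652 in involution (3.17-fold lower in homozygous HHR), and the protease cathepsin L, Ctsl, gave 8308, 3950, 8175 and 21459 (2.63-fold lower). Timp1, an inhibitor of matrix proteases, was 11.03-fold lower at 779 against 8593, close to SDR lactation at 781. Against involution the same list had 10 of its members lower in SDR lactation, where 10.3% of all measured genes were, and medians of -0.86 in SDR lactation and -1.55 in heterozygous HHR.

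**Figure D3:**
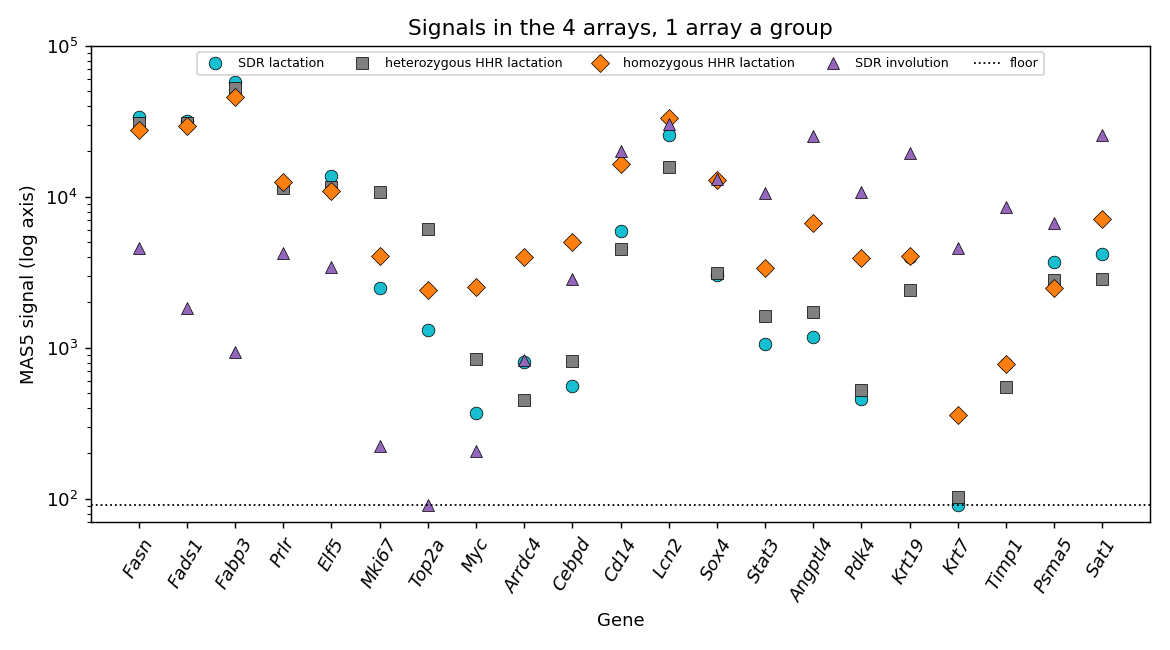
MAS5 signals of 21 genes in the 4 arrays on a logarithmic axis, 1 point an array, with the floor of 91.5 as a dotted line. Homozygous HHR lies with the other lactation arrays for Fasn, Fads1, Fabp3, Prlr and Timp1, beside involution for Cd14 and Sox4, between them for Stat3, Angptl4 and Pdk4, and above all 3 others for Myc, Arrdc4 and Cebpd.

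Acute phase and bacterial sensing genes were divided in the same way. Of 30 members 4 were higher and 10 lower, at a median of -0.46. Cd14, the lipopolysaccharide co-receptor, gave 5985, 4533, 16494 and 20076 and the neutrophil chemokine Cxcl1 gave 91.5 (floor), 145, 1188 and 1046, both within 1.3-fold in the pair. Tlr2, a receptor for bacterial lipoproteins, gave 1042, 1218, 4489 and 1563 and was 2.87-fold above involution. Lbp, which hands lipopolysaccharide to Cd14, was 3.54-fold lower at 5370 against 18997, and complement C3 was 2.82-fold lower at 8244 against 23251, whereas the protease inhibitor Slpi gave 1316, 332, 249.5 and 1202 (4.82-fold lower) and was low in both HHR arrays. The iron-scavenging protein Lcn2 was high in all arrays, at 25616, 15836, 33408 and 30462, and within 1.1-fold in the pair.

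Cell death genes were lower in homozygous HHR where they differed. Of 32 measured members 0 were higher and 11 lower, at a median of -0.47. In SDR lactation against involution 11 were also lower, where 10.3% of all measured genes were, beside 7.76% in the pair. The BH3 proteins Bik and Bmf, which trigger mitochondrial death, gave 347 against 1772 (5.11-fold) and 175 against 535 (3.05-fold). Casp1, the inflammatory caspase, gave 823 against 2246 (2.73-fold) and the inhibitor of apoptosis Birc3 gave 245 against 1107 (4.53-fold), so genes for and against survival were both in this group. The brightest probe set of the survival gene Mcl1 gave 6951, 4620, 13040 and 8474, highest in homozygous HHR, with a dimmer one the opposite way between the pair. Of 18 autophagy genes 1 was lower, the cargo receptor Sqstm1 at 2659 against 7088 (2.67-fold).

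Of 34 lysosomal genes 4 were higher and 3 lower (median 0.03), where 7.67% and 7.76% of all measured genes were. Acid ceramidase, Asah1, was 3.36-fold higher at 2912 against 867 and cathepsin H, Ctsh, 2.16-fold higher at 17897 against 8287, whereas the membrane protein Lamp1 was 2.05-fold lower. Of 27 matrix proteases and inhibitors 2 were higher and 5 lower (median -0.52). The membrane protease matriptase, St14, gave 2878 against 7010 (2.44-fold lower) and the macrophage elastase Mmp12 gave 795 against 1666 (2.10-fold lower), while Mmp14, which activates gelatinase, was at 3386 against 5944, short of 2-fold.

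Keratins were lower in homozygous HHR with 1 exception past 2-fold. Of 18 keratins on the array 12 were measured, and 10 of these were lower and 1 higher, at a median of -1.59. Krt7, a keratin of ducts, gave 91.5 (floor) in SDR lactation, 102 in heterozygous HHR lactation, 361 in homozygous HHR lactation and 4620 in involution (12.8-fold lower). The luminal pair Krt8 and Krt18 gave 5233, 6470, 9013 and 22880 and 4954, 4599, 8524 and 17138, with homozygous HHR above both other lactation arrays and below involution. Krt19 was at 4065 against 19472 (4.79-fold lower) and level with SDR lactation at 4025. The higher member was Krt5, a basal keratin, at 5448 against 2693 (2.02-fold, and short of 2-fold with hybridisation controls set equal), while its usual partner Krt14 was 2.09-fold lower at 1175 against 2459. Medians against the same involution array were -1.96 in SDR lactation and -1.85 in heterozygous HHR.

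Annexins and S100 proteins, which bind calcium at membranes, had 0 of 21 members higher and 7 lower (median -0.79). Anxa1 gave 2335, 2345, 12821 and 33255 and lay between SDR lactation and involution, whereas Anxa2, at 3893, 3187, 2973 and 12451, and S100a6, at 1431, 1847, 2232 and 13292, were near the other lactation arrays (4.19-fold and 5.95-fold lower than involution). The galectin Lgals3 was 7.08-fold lower at 2864 against 20287. Tight junction genes were mixed, with 2 of 14 higher and 3 lower: Cldn8 was 4.30-fold higher at 12742 against 2966 and Cldn4 2.60-fold lower at 2479 against 6439. Markers of skin epidermis, a list that shares Krt1 and Krt10 with the keratins, were lower in 5 of 7 measured genes and higher in 0. Their summed signal was 1351 in homozygous HHR and 8039 in involution, and 2 further markers were at the floor in both. Most of that difference was the cornified-layer gene Sbsn, at 565 against 6319. Without Sbsn and both shared keratins the sums were 465 and 723 over 4 genes, of which 2 were lower. Loricrin was at the floor in homozygous HHR and at 352 in involution, while Calml3 and Lce1f were at 149.6 and 132 in homozygous HHR and at the floor in involution, short of 2-fold. Summed signals of all 7 were 962 in SDR and 1227 in heterozygous HHR lactation. The part of skin in the keratin differences was not tested.

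Proteasome subunits were lower in homozygous HHR, with log2 differences from -1.54 (Psmd8) to -0.06 (Psmb5, level in the pair). Of 30 measured subunits of the constitutive particle 0 were higher and 15 lower, and all 30 had the lower signal there, at a median of -1.03. The outer ring subunit Psma5 gave 3705, 2821, 2494 and 6724 (2.70-fold), and the lid subunits Psmd8 and Psmd14 gave 1456 against 4226 (2.90-fold) and 1401 against 3922 (2.80-fold). Psma6 was at 7730 against 14363, short of 2-fold. The lower count was 11 with array medians set equal and 27 with hybridisation controls set equal. Against the same involution array 10 subunits were lower in SDR lactation, where 10.3% of all measured genes were. The medians were -0.86 in SDR lactation and -0.69 in heterozygous HHR. The element TGACNNNGC, bound by the factors that induce proteasome genes under oxidative stress and read here on both strands, was in 5 of 26 promoters of the list (19.2%) and in 12.1% of all promoters. Of these 5 genes 2 were at least 2-fold lower, as were 15 of all 30 measured subunits, and Psmb5 was among the others.

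Stress and redox genes were divided. The metallothionein Mt2A gave 358, 664, 1368 and 8109 (5.93-fold lower), mitochondrial superoxide dismutase Sod2 was at 2296 against 8746 (3.81-fold lower) and the glutathione transferase Gstp1 at 4427 against 11412 (2.58-fold lower), whereas catalase, Cat, was 3.31-fold higher at 9175 against 2769. In the whole antioxidant and arrestin list 3 of 27 were higher and 6 lower. The glucose-responsive arrestin Arrdc4 gave 808, 455, 3983 and 829.6 and stood 4.80-fold above the next array, while its relative Txnip was level in the pair at 16706 against 16914. Sat1, which degrades polyamines, gave 4193, 2840, 7097 and 25515 (3.60-fold lower), and Srm, which makes them, was 2.94-fold higher at 917 against 312. Angptl4, an inhibitor of lipoprotein lipase and a target of glucocorticoids and fasting, gave 1186 in SDR lactation, 1719 in heterozygous HHR lactation, 6684 in homozygous HHR lactation and 25142 in involution. Of 13 cytosolic heat shock genes 0 were higher and 2 lower.

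Interferon response genes were lower in homozygous HHR. Of 31 measured members 0 were higher and 15 lower, at a median of -0.87. The transcription factors Irf1 and Irf7 gave 727 against 2325 (3.20-fold) and 437 against 1480 (3.39-fold), and the antiviral gene Ifit2 gave 580.3 against 1900 (3.27-fold). Oas1a, an antiviral sensor, was at the floor in homozygous HHR and at 617 in involution, at least 6.74-fold apart. SDR lactation lay between the pair for Irf7 at 892 and Ifit2 at 786, and level with homozygous HHR for Irf1 at 762. Against the same involution array 7 members were lower in SDR lactation, where 10.3% of all measured genes were. The medians were -0.66 in SDR lactation and -1.04 in heterozygous HHR.

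Major histocompatibility genes, RT1 in the rat, separated arrays in ways that did not follow stage. Of 18 measured RT1 genes 2 were higher and 9 lower in homozygous HHR, at a median of -1.03. RT1-CE5 gave 16488, 151, 117 and 825 and RT1-A gave 91.5 (floor), 299.9, 323 and 2205. The 2 SDR arrays differed from each other 19.98-fold for RT1-CE5, more than homozygous HHR and involution did. RT1-Bb, a class II beta chain, was 2731 in SDR lactation and at the floor in involution, with HHR at 816 (heterozygous) and 777 (homozygous). A dimmer probe set of RT1-Bb gave 91.5 (floor), 385, 332 and 144, with the SDR arrays in the opposite order. RT1 genes are polymorphic and share sequence, and their values are uncertain for that reason. Probe sets of RT1-Ba went opposite ways between the pair. Of 23 chemokines and receptors 3 were higher and 8 lower, with Ccl28, which draws plasma cells into the lactating gland, 8.45-fold higher at 1300 against 154 and Ccl2, which attracts monocytes, 3.02-fold lower at 376 against 1135.

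Cell type markers bear on every group above, because in tissue RNA fewer cells of a type and less RNA per cell cannot be told apart. Defining markers of mammary epithelium were present in both arrays, with Epcam at 22380 against 31413. Of 14 luminal epithelium markers 0 were higher and 5 lower, with summed signals of 78181 in homozygous HHR and 133172 in involution, and 64943 and 61996 in SDR and heterozygous HHR lactation. Without Krt8, Krt18 and Krt19 the sums were 56579 and 73682, with 2 of 11 markers lower. Of 13 myoepithelial markers 1 was higher and 1 lower, with sums of 53151 and 40466. The contractile genes Acta2 and Myh11 were at 7119 against 5433 and 9247 against 6407, short of 2-fold, and a further probe set of Myh11 went the other way. Fibroblast and matrix markers had 3 of 23 higher and 2 lower, with sums of 114691 and 96326. Their median was 0.36, and 14 of the 23 had the higher signal in homozygous HHR. They ranged from fibronectin, Fn1, 3.72-fold lower at 1047 against 3896, to Thy1, 2.17-fold higher at 1035 against 477.

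Adipocyte markers were higher in homozygous HHR, with 9 of 14 higher, 0 lower and a median of 1.05. The fat cell hormone Adipoq gave 1328, 1684, 1601 and 427 and the droplet protein Plin1 gave 561, 1150, 977 and 286, so homozygous HHR stood with the other lactation arrays. Their summed signal was 38659 in homozygous HHR and 15369 in involution, 51499 and 37315 in SDR and heterozygous HHR lactation, and 2 markers were at the floor in the pair. Adipocytes share Cd36, Lpl and the lipogenic enzymes with secretory cells, and their part in the lipid differences was not tested. With hybridisation controls set equal 5 adipocyte markers remained higher.

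Blood and immune cell markers rested on unequal numbers of measured genes. Neutrophil markers rested on 3 measured genes with 4 at the floor in both arrays. Among them S100a8 and S100a9 were at 325 against 2809 and 280.4 against 1409 (8.65-fold and 5.02-fold lower), while the neutrophil receptor Csf3r was at or near the floor in both. Macrophage markers had 1 of 17 higher and 2 lower, with sums of 24549 and 49669, most of the difference in Lgals3, without which they were 21686 and 29382. The macrophage receptor Adgre1 gave 333, 129, 118 and 639 (5.41-fold lower). Of 14 endothelial markers 1 was higher and 3 lower. The growth factor receptor Kdr was 2.85-fold higher at 1701 against 597, a call lost when probe sets with shared probes were left out, and the endothelial junction gene Cldn5 4.63-fold lower at 201 against 930.1. Of 3 measured mast cell markers 2 were lower, Cpa3 and Cma1 (3.07-fold and 3.89-fold), Tpsb2 was at 121 against the floor, and 4 others were at the floor in both arrays. Of 11 T cell markers 1 was higher, and of 3 measured B and plasma cell markers 1 was lower. Red cell markers had 1 of 4 higher, with Hbb, beta globin, at 14503, 4461, 6945 and 3425.

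**Figure D4:**
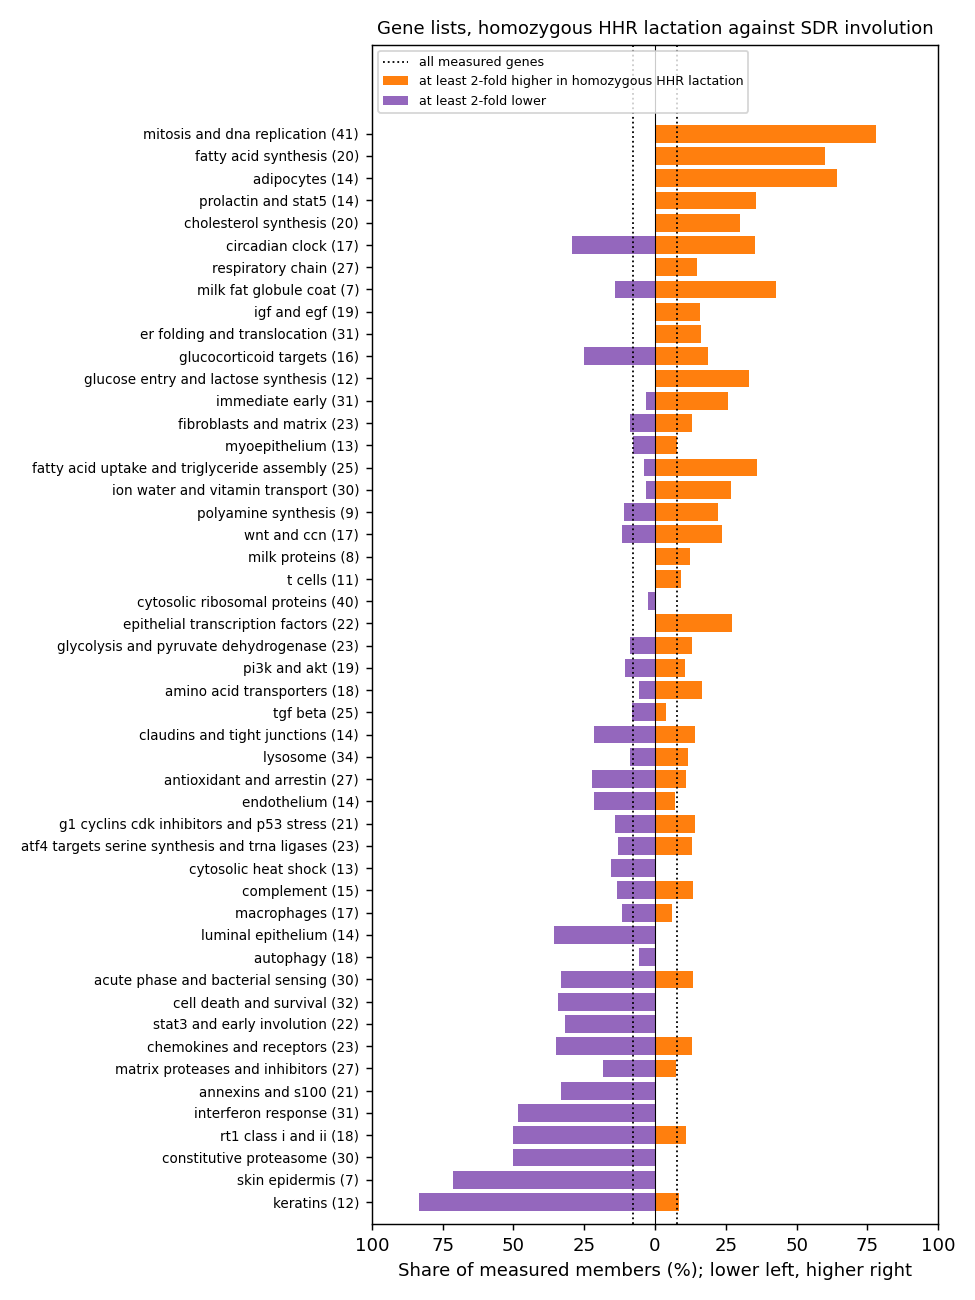
For each gene list with at least 7 measured members (number in brackets), bars give the share of members at least 2-fold higher in homozygous HHR lactation to the right and at least 2-fold lower to the left, ordered by the list's median. Dotted lines mark 7.67% and 7.76%, the shares over all measured genes. Mitosis, fatty acid synthesis and adipocyte markers reach furthest right, and keratins and skin markers furthest left.

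Clock genes differed in opposite directions, with 6 of 17 higher and 5 lower. Cry1 and Per1, repressors of the clock, were at 929 against 216 (4.29-fold higher) and 445 against 103 (4.33-fold higher), and their relatives Cry2 and Per3 went the other way, at 218 against 691 (3.17-fold lower) and 149 against 583 (3.92-fold lower). In addition Nr1d1 was at 98 against 893 (9.15-fold lower) and the output gene Dbp at 179 against 682 (3.81-fold lower). The hour at which glands were taken is not stated in the labels, and its part in these values was not tested. Among growth signalling genes, Pik3r1, the regulatory subunit of PI3 kinase, gave 2434, 312, 461 and 2046, with both HHR arrays low, and the kinase Sgk1 was 4.25-fold higher at 3082 against 726. Egf, a growth factor of milk, was 3.71-fold higher at 905 against 244. Epithelial transcription factors had 6 of 22 higher and 0 lower: Klf5 gave 335, 590.1, 1805 and 563 and Foxq1 gave 179, 133, 1468 and 449, each highest in homozygous HHR, while Sox4 gave 3062, 3140, 13031 and 13198 and was level in the pair, with further probe sets on both sides and each short of 2-fold.

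Some genes had both HHR arrays on one side of both SDR arrays, although several also differed between the SDR arrays. Fam111a was at 10912 in homozygous and 15339 in heterozygous HHR, and at 659 in SDR lactation and 133 in SDR involution. Coagulation factor F5 gave 118, 772, 579.8 and 160.4 and the cell cycle transcription factor Foxm1 91.5 (floor), 617, 264 and 91.5 (floor), with both HHR arrays above both SDR arrays. Besides RT1-CE5 and Pik3r1, the mast cell protease Cma1 and Klhl42, an adaptor of ubiquitin ligases, were lower in both HHR arrays than in both SDR arrays, Klhl42 with 372, 91.5 (floor), 96 and 482. These genes were picked for that pattern, so the choice itself set homozygous HHR apart from SDR lactation in the same direction. Others stood apart in homozygous HHR alone. Beyond Arrdc4 and Foxq1 these included Cndp1, a dipeptidase, with 179.7, 183, 804 and 107, Rnf39 with 2303 against 529 in SDR lactation, its next highest array, Ephx2, the soluble epoxide hydrolase, with 91.5 (floor), 91.5 (floor), 933 and 258, Slc45a3 with 355, 633, 2006 and 430.1, and, on the low side, the endosomal protein Rufy1 with 992, 834, 359 and 851 and the transcription factor subunit Gtf2f2 with 782, 739, 339.8 and 762. Their gaps to the nearest array were 4.41-fold, 4.35-fold, 3.61-fold, 3.17-fold, 2.33-fold and 2.17-fold, with no replicate to set them against.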

How the data were processed

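RNA from mammary gland was hybridised to 4 Affymetrix arrays, 1 a group. The authors deposited 1 linear intensity for each probe set, computed with MAS5, a tool that the deposited record names per the submitters' processing notes, with no version. Detection calls and settings of MAS5 were not used here. Column titles gave the sample, and groups were taken from the labels.

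Of 31099 probe sets, 57 were controls, and 20826 others had 1 gene symbol in the platform annotation, 436 several and 9780 none listed. Those with several or none were not named. Values were raised to a floor (91.5) before the log2 was taken, and of several probe sets for a gene the brightest over the 4 arrays was kept. With 1 array a side no test was run and precision is limited by the number of arrays. Members of 56 gene lists (1141 of 1251 entries were on the array, 5 through an older symbol, among them Krt6c, Hba-a3 and Loricrin) were counted at 2-fold, and lists share some genes. The members, lists and motifs were chosen with earlier results of these data known, and the elements TTTGAA and TGACNNNGC and both scalings on spiked controls were added after seeing the data.

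Genes named are a selection from the 20 largest differences in each direction, the 6 brightest at the floor in 1 array, up to 6 past 2-fold in each direction and 4 short of it in each list, and genes that set both HHR arrays or homozygous HHR apart. Alternatives were median centring, quantile normalization, floors at the 25th and 55th percentiles, the floor as pseudocount, the mean of all probe sets, no shared-probe sets, a 3-fold threshold and scaling on spiked controls. Steps were tested on simulated data. Promoters came from RefSeq (GRCr8), whose coordinates are given for them alone. Python 3.11.15, numpy 2.4.6 and pandas 2.3.3 were used.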

Additional observations from a re-analysis of the deposited data

How the results depend on the processing

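No paired analysis was possible because each group is 1 array and the labels carry no replicate numbers, and for the same reason no replicate could be left out. Under a 3-fold threshold 327 genes were higher and 241 lower, fewer by construction. With hybridisation controls set equal, an alternative added after seeing the data, 491 were higher and 1987 lower. The other alternatives kept both counts within 1.5 times those given. The list of hormone-sensing cells rested on 1 measured gene, with a median of 0.999 that became -0.56 with the floor at the 25th percentile and -0.12 with hybridisation controls set equal. Of 179 named genes 27 crossed 2-fold under at least 1 alternative. Among these were Krt5, Krt14, Krt18, Lamp1, Mmp12, Hbb and Ctsh under a scaling. B4galt1, Kdr, Sec61a1 and Plin1 were also among them, and fell short of 2-fold when a gene's probe sets were averaged. Of the named genes past 2-fold 0 reversed. Named genes short of 2-fold were not part of that count. Their direction can change with the scaling, as the median of the milk protein list did with hybridisation controls set equal. Weakly expressed genes are hidden by the floor, the brightest signals may be bounded, and the scaling on which every direction near 0 rests could not be settled from 1 array a side.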

Other observations

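Other lists had few called members or members in both directions between homozygous HHR lactation and SDR involution. Over all measured genes 7.67% were higher and 7.76% lower. Of 21 G1 cyclins, CDK inhibitors and p53 stress genes 3 were higher and 3 lower, with the cyclin Ccnd1 at 3359 against 1449 (2.32-fold higher) and the stress gene Gadd45a at 698 against 4370 (6.26-fold lower). Of 25 genes of TGF-beta signalling 1 was higher and 2 lower, with Inhbb, an activin subunit, at 319 against 1122 (3.52-fold lower). Of 19 IGF and EGF genes 3 were higher and 0 lower, among them the insulin receptor substrate Irs2 at 1410 against 521 (2.71-fold). Of 15 complement genes 2 were higher and 2 lower, with the inhibitor Cfi at 1035, 138, 370.3 and 2279 (6.15-fold lower) and Vtn, vitronectin, at 555 against 137 (4.06-fold higher). Of 9 polyamine genes 2 were higher and 1 lower, of 5 measured skeletal muscle markers 1 was lower, and of 6 nerve and Schwann cell markers 1 was higher.

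Probe sets without a listed gene also differed. Of 4922 measured ones 305 were higher and 458 lower in homozygous HHR, 15.5% in either direction. The one with the widest gap among the higher gave 1489, 13253, 3443 and 145 (lactation in SDR, in heterozygous and in homozygous HHR, then SDR involution), and the one with the widest gap among the lower gave 972, 385, 845 and 24602 in the same order. The latter was 29.1-fold lower in homozygous HHR than in involution.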
